A study of Saccharomyces cerevisiae with 8 samples.

Results

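The 10 genes described here are the iron uptake genes of the Aft1 regulon of budding yeast (Saccharomyces cerevisiae): FET3, FTR1, CCC2, FRE1, FRE2, ARN1, ARN2, SIT1, FIT2 and FIT3. They were chosen by name, as known targets of the iron-responsive activator Aft1, and all 10 were found among the 4928 transcripts counted. All 10 also passed the filter on low counts, which left 4901 genes for testing. Newly made RNA was measured by 4tU-seq, in which cells take up 4-thiouridine (4tU) and the RNA that carries the label is isolated and sequenced. DMSO or 1-NA-PP1 was combined with growth at steady state or with heat shock, which gave 4 groups of 2 libraries.

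Every group, controls included, came from the same haploid strain of mating type alpha. Its genotype label lists changes at ade2 (with hisG), his3, leu2, lys2, met15, trp1 and ura3, and its chromosomal srb10 was replaced by KanMX. The plasmid pSH599, with ars and cen elements and the TRP1 marker, carried srb10as-1, whose product has the change Y236G. Srb10 is the kinase of the Mediator Cdk8 module, and the analog-sensitive form can be blocked by 1-NA-PP1, a bulky inhibitor of engineered kinases. Cultures grew in YPD-Trp at 30 °C from an OD600 of 0.1 to 0.8, and then received 6 µM 1-NA-PP1 or an equal volume of its solvent DMSO for 12 minutes. Heat shock groups were then held at 37 °C for 12 minutes, whereas steady state groups were not. All cultures were labelled with 5 mM 4tU for 5 minutes, and 100 ng of RNA entered each library. The time between the addition of the inhibitor and labelling was therefore longer in the heat shock groups. A strain with wild-type SRB10 and 1-NA-PP1 was not analysed here, so effects of the compound on other proteins cannot be told apart from those on Srb10. No label states that replicates came from separate cultures, so the p-values measure the spread between these libraries, which may be technical.

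Yeast takes up iron by reduction at the cell surface followed by transport, and by import of iron bound to siderophores, small chelators released by other microbes. In the first route the metalloreductases Fre1 and Fre2 reduce ferric iron, and the multicopper oxidase Fet3 re-oxidises it and passes it to the permease Ftr1. Ccc2 is the P-type ATPase that supplies copper to Fet3 in the secretory pathway. In the second route the cell wall mannoproteins Fit2 and Fit3 help retain siderophores, and the transporters Arn1, Arn2 and Sit1 import them. Aft1 activates these genes when mitochondrial iron-sulphur cluster synthesis falls, and its known binding core is a purine before CACCC, as in the hexamers GCACCC and ACACCC.

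The stretches below hold, for each gene, the GCACCC or ACACCC match nearest to its coding start. Binding of Aft1 to these stretches was not tested. They were read from the RefSeq genome of the build sacCer3 (R64), 5′ to 3′ along the strand that reads the motif, with the hexamer in capitals and 12 bases on either side.
FET3 at chrXIII:388560-388589, plus strand: atcttcaaaagtGCACCCatttgcaggtgc
FTR1 at chrV:461897-461926, minus strand: gcgtagatgaatGCACCCgatttctaagtt
CCC2 at chrIV:1005421-1005450, minus strand: catcgccgcactGCACCCgttcttttccac
FRE1 at chrXII:568333-568362, plus strand: tgatttactaatACACCCaatttctaatat
FRE2 at chrXI:11473-11502, plus strand: ggcacgaatgatACACCCatattttcaaca
ARN1 at chrVIII:21213-21242, minus strand: atttatcaaaatGCACCCataaaagcaggt
ARN2 at chrVIII:10643-10672, plus strand: gaactaagaactGCACCCattttctgattg
SIT1 at chrV:27457-27486, minus strand: acgaaccagattGCACCCtcaaatgtgttc
FIT2 at chrXV:1059388-1059417, minus strand: gctaattatactGCACCCagttagattcgt
FIT3 at chrXV:1061222-1061251, plus strand: ccccatttttttGCACCCtttcctagaatg

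Within the 500 bases before the coding start, on both strands, GCACCC was found in 9 of the 10 genes, where 7.38% of the 4840 windows of the same length held it. ACACCC was found in 4 of the 10, against 10.9% of all windows, and at least 1 of these hexamers was found in 10 of 10, against 17.3%. The longer TGCACCC, which contains GCACCC, was found in the same 9 genes and in 2.36% of all windows. FRE1 held a single ACACCC and no GCACCC. Because the genes are known targets of Aft1, these counts describe the list and are no independent finding. FIT2 held 6 hexamers, the highest number, FIT3 held 3, and the others 1 or 2. The nearest hexamer ended 126 bases before the coding start in FIT2 and 442 bases before it in ARN2. The motif TTTGCTC, the core bound by the copper-sensing activator Mac1, occurred 3 times before FRE1 and 1 time before FTR1, and 9.3% of all windows held it. CCCCT, the stress element read by Msn2 and Msn4, was found before ARN1 and FIT2 and in 34.5% of all windows. None of the hexamers overlapped a CCCCT, but in FIT2 a CCCCT directly followed 1 GCACCC.

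**Figure D1:**
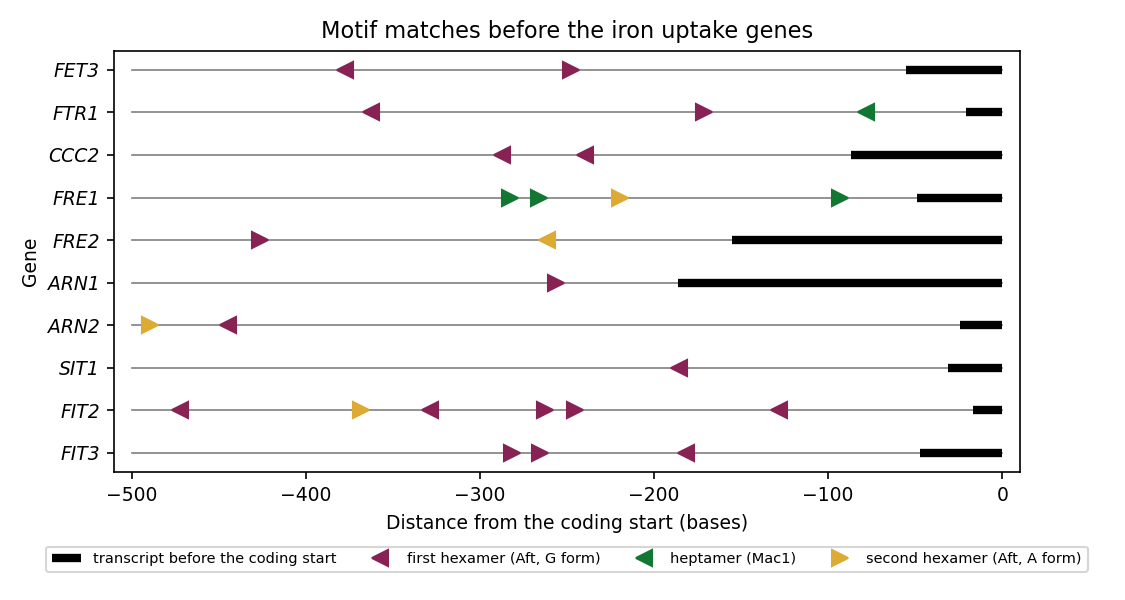
Positions of the motif matches in the 500 bases before the coding start of each gene (x axis, bases; 1 row per gene). Arrowheads give the direction in which a motif reads, purple for GCACCC, yellow for ACACCC and green for TTTGCTC, and black bars are the part of the deposited transcript before the coding start. FIT2 carries 6 hexamers, and FRE1 carries 1 hexamer among 3 TTTGCTC matches.

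FIT2 and FRE1 had the largest and the smallest log2 change under heat shock with DMSO (below), and were picked for these values. The 300 bases before their deposited transcript starts are therefore printed here, on the gene's strand and read from the same genome. Matches to the Aft hexamers and the Mac1 core are in capitals, and a match on the other strand appears as its reverse complement. The window printed for FIT2 holds 3 of its 6 hexamers. Whether the number of hexamers goes with the size of the change was not tested.
FIT2 at chrXV:1059214-1059513, plus strand: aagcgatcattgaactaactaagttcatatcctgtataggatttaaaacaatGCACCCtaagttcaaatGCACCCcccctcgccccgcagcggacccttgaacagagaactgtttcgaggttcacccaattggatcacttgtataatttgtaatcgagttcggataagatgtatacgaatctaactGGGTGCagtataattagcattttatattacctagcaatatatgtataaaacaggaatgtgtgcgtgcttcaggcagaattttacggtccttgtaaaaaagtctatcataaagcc
FRE1 at chrXII:568218-568517, plus strand: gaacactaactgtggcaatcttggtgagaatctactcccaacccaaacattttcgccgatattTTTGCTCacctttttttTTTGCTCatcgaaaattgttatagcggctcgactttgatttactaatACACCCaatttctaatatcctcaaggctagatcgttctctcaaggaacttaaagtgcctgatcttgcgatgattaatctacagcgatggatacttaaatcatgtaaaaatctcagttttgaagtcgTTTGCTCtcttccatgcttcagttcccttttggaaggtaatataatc

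The libraries held 60372371 to 65134744 counts at steady state and 14680275 to 17743527 under heat shock, so values under heat shock rest on fewer counts. SSN3, the standard gene symbol for SRB10, had 2438 ± 2.25 CPM (depth-normalised counts, SD, n = 2) with DMSO at steady state and between 2187 and 3204 CPM as group means over all groups. The mating type label was checked against defining genes. At steady state with DMSO, the summed level of the alpha-cell genes STE3, MFALPHA1 and SAG1 was 3578 and 3975 CPM, and that of the a-cell genes STE2, MFA1, MFA2, AGA2 and BAR1 was at most 16.4 CPM in a library. Under heat shock the alpha-cell sum was 923 to 1122 CPM and the a-cell sum was 31.8 to 41.8 CPM over the 4 libraries, and the part of this shift in the results below was not tested. In a principal component analysis the first component held 77.1% of the variance and separated heat shock from steady state. The known heat shock genes HSP12, SSA4 and HSP104 rose with DMSO by log2 changes of 1.81, 1.47 and 0.64. With 1-NA-PP1 they rose by 0.75, 0.67 and 0.40. The authors' deposited tables gave them 1.48, 1.15 and 0.32 (adjusted p = 0.0807 for HSP104) with DMSO. With 1-NA-PP1 those tables gave 0.15, 0.05 and -0.25, and none of them passed. The authors' medians over all genes were -0.32 and -0.66.

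At steady state with DMSO the uptake genes spanned a wide range of levels, compared here as CPM per kilobase of transcript. FET3 stood highest at 147 ± 1.21 CPM per kilobase (SD, n = 2), followed by FRE1 at 121 ± 14.5, FTR1 at 86.2 ± 1.12 and CCC2 at 80.1 ± 2.90. FIT3 followed at 25.8 ± 2.06, ARN1 at 13.8 ± 0.336, SIT1 at 12.8 ± 1.32 and ARN2 at 5.96 ± 0.0357. FIT2 at 3.02 ± 0.132 and FRE2 at 2.79 ± 0.120 CPM per kilobase were the lowest. Between neighbours in this order, the libraries of ARN1 and SIT1 overlapped and those of the other neighbours did not. The median over all genes was 74.5 CPM per kilobase, so the oxidase, permease, copper pump and FRE1 lay above it and the siderophore genes and FRE2 below it. FRE2 had a level above that of 3.16% of all genes, and FET3 above 79.4%. Under heat shock with DMSO the order was FET3 at 349 ± 67.6, CCC2 at 247.5 ± 12.1, FTR1 at 203 ± 31.5, FRE1 at 199 ± 9.60, FIT3 at 54.2 ± 13.6, ARN1 at 39.9 ± 3.65, SIT1 at 23.2 ± 4.97, FIT2 at 15.2 ± 5.78, ARN2 at 12.8 ± 3.25 and FRE2 at 5.31 ± 0.903 CPM per kilobase. FTR1 and FRE1 overlapped there, as did FIT2 and ARN2.

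**Figure D2:**
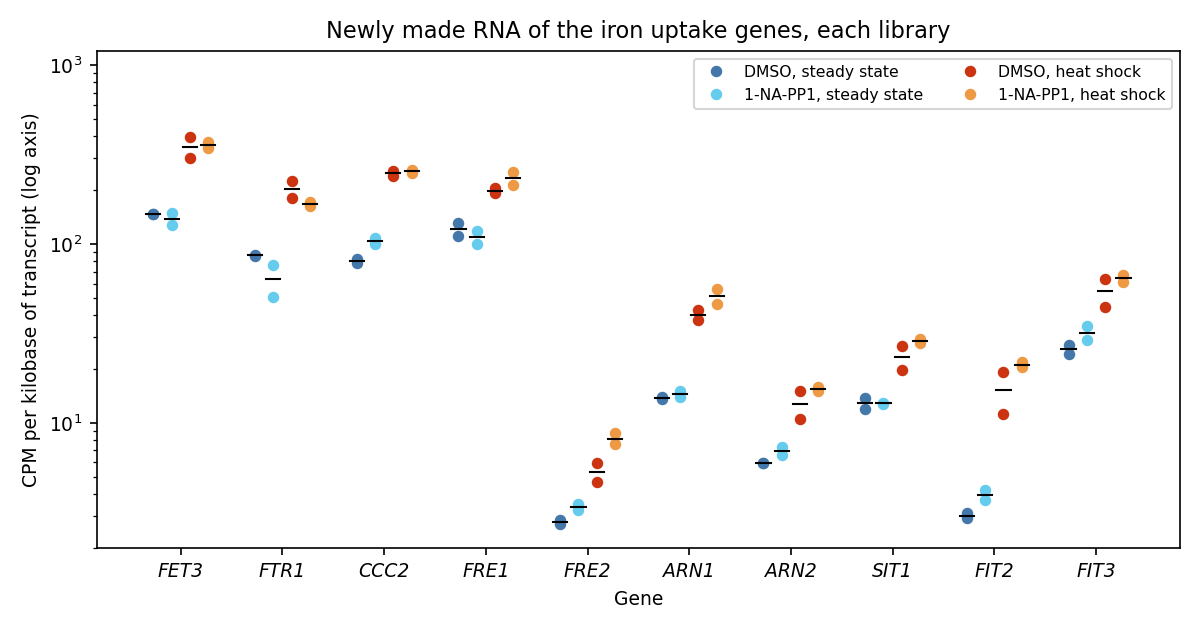
CPM per kilobase of transcript (log axis) of the 10 uptake genes in each of the 8 libraries; points are libraries, coloured by group, and short lines are the group means of 2 libraries. The heat shock points lie above the steady state points for each of the 10 genes, and FIT2 moves from 3.02 to 15.2 CPM per kilobase with DMSO.

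The genes lie on 7 chromosomes, and 6 of the 10 lie within 35 kb of a chromosome end, where 5.26% of all 4928 transcripts do. ARN2 lies 8.2 kb, FRE2 8.9 kb, ARN1 18.7 kb, SIT1 27.6 kb, FIT3 30.2 kb and FIT2 31.2 kb from an end, and these were also the 6 lowest at steady state. The distance limit was set after the positions were seen. FIT2 (1059514 to 1060086, plus strand) and FIT3 (1060241 to 1061102, minus strand) of chromosome XV are convergent neighbours with 154 bases between their transcript ends. SIT1 (chromosome V, 27626 to 29618) overlaps the opposite-strand gene AVT2 over 150 bases, and FRE1 (chromosome XII, 568518 to 570758) overlaps CDC123 over 88 bases. Whether reads were counted by strand is not given in the sources used here, so the counts of SIT1 and FRE1 may include reads of those genes. The other 8 overlap no transcript, and no stretch of 50 bases of any of the 10 occurred a second time in the genome.

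Heat shock raised all 10 uptake genes in the DMSO groups. In edgeR's quasi-likelihood test, with p-values adjusted over 4901 genes by Benjamini-Hochberg and a threshold of 0.05, 10 of 10 rose with DMSO, where 29.6% of all genes were called higher and 28.9% lower. All 10 also had heat shock libraries above both steady state libraries, which held for 40.9% of all genes. Their median log2 change was 1.17, against -0.01 for all genes, and single changes ran from 0.71 for FRE1 to 2.35 for FIT2. The summed level of the 10 genes was 1053 ± 24.3 CPM at steady state and 2477 ± 287 CPM under heat shock (SD, n = 2). TMM scaling sets the bulk of genes near 0, so each change here is a shift against the other genes. In bulk libraries more cells that make an RNA and more of it per cell cannot be told apart.

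In the oxidase and permease complex, FET3 (YMR058W, chromosome XIII, 388767 to 390871) had 311 and 307 CPM with DMSO at steady state and 835 and 634 CPM with DMSO under heat shock. With 1-NA-PP1 it had 315 and 267 CPM at steady state and 780 and 721 CPM under heat shock. Heat shock libraries were above all 4 steady state libraries. The log2 change was 1.25 (SE 0.133, edgeR adjusted p = 0.000138) with DMSO and 1.37 (SE 0.133, adjusted p = 9.63e-05) with 1-NA-PP1. FTR1 (YER145C, chromosome V, 460426 to 461761) had 114 and 116 CPM with DMSO and 102 and 67.7 CPM with 1-NA-PP1 at steady state. In heat shock it reached 301 and 242 CPM with DMSO and 230 and 217 CPM with 1-NA-PP1. The second 1-NA-PP1 library at steady state was the lowest of all 8 for FTR1. Its log2 change was 1.24 (SE 0.179, edgeR adjusted p = 0.000639) with DMSO and 1.40 (SE 0.18, adjusted p = 0.000413) with the inhibitor.

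CCC2 (YDR270W, chromosome IV, 1005588 to 1008767), the copper pump, had 261 and 248 CPM with DMSO and 318 and 343 CPM with 1-NA-PP1 at steady state. With heat shock these became 814 and 760 CPM with DMSO and 795 and 818 CPM with 1-NA-PP1. The steady state groups did not overlap each other, whereas the heat shock groups did. CCC2 rose 3.09-fold with DMSO (log2 change 1.63, SE 0.0724, edgeR adjusted p = 2.34e-06) and 2.44-fold under the inhibitor (1.29 on the log2 scale, SE 0.0717, adjusted p = 6.00e-06).

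Of the reductases, FRE1 (YLR214W) had 249 and 295 CPM with DMSO and 263 and 223 CPM with 1-NA-PP1 at steady state. Its levels under heat shock were 460.2 and 430 CPM with DMSO and 563 and 477 CPM with 1-NA-PP1. Its log2 change was 0.71 (SE 0.121, edgeR adjusted p = 0.00139) with DMSO and 1.10 (SE 0.121, adjusted p = 0.000187) with 1-NA-PP1. With the authors' deposited factors FRE1 kept a positive change of 0.40 with DMSO, but edgeR's adjusted p was 0.102. FRE2 (YKL220C, chromosome XI, 8915 to 11381) had 6.66 and 7.08 CPM with DMSO and 8.61 and 7.97 CPM with 1-NA-PP1 at steady state. Heat shock libraries of FRE2 held 14.7 and 11.5 CPM with DMSO and 21.6 and 18.7 CPM with 1-NA-PP1. None of these groups of FRE2 overlapped, and the level was highest with inhibitor and heat shock together. Its log2 change under heat shock was 0.94 (SE 0.148, edgeR adjusted p = 0.000986) with DMSO and 1.28 (SE 0.142, adjusted p = 0.000191) with 1-NA-PP1.

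All 3 siderophore transporters rose. ARN1 (YHL040C, chromosome VIII, 18668 to 21157), an importer of ferrichrome-type siderophores, had 33.7 and 34.9 CPM with DMSO and 37.4 and 34.6 CPM with 1-NA-PP1 at steady state. Its levels under heat shock were 106 and 92.9 CPM with DMSO and 140 and 115 CPM with 1-NA-PP1. Its log2 change was 1.53 (SE 0.115, edgeR adjusted p = 2.38e-05) with DMSO and 1.82 (SE 0.115, adjusted p = 1.06e-05) with 1-NA-PP1. ARN2 (YHL047C, chromosome VIII, 8200 to 10237), an importer of triacetylfusarinine C, had 12.1 and 12.2 CPM with DMSO and 13.5 and 14.9 CPM with 1-NA-PP1 at steady state. Its heat shock libraries held 30.7 and 21.3 CPM with DMSO and 32.1 and 30.5 CPM with 1-NA-PP1. The second DMSO library under heat shock was the lowest of the heat shock libraries for ARN2. SIT1 (YEL065W), an importer of ferrioxamine B, had 23.7 and 27.4 CPM with DMSO and 25.8 and 25.3 CPM with 1-NA-PP1 at steady state. Heat shock libraries held 53.3 and 39.2 CPM with DMSO and 58.8 and 55.8 CPM with 1-NA-PP1. The same DMSO library was again the lowest under heat shock. The log2 changes were 1.11 (SE 0.161) and 1.14 (SE 0.159) for ARN2 and 0.86 (SE 0.145) and 1.17 (SE 0.144) for SIT1, with DMSO and with 1-NA-PP1, and all 4 had edgeR adjusted p-values of 0.00134 or less.

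The cell wall mannoprotein genes gave the largest change of the 10 in both comparisons, in FIT2, and a smaller one in its neighbour FIT3, which had the lowest of the 10 changes with 1-NA-PP1. FIT2 (YOR382W) had 1.78 and 1.67 CPM with DMSO and 2.11 and 2.40 CPM with 1-NA-PP1 at steady state. Its levels under heat shock were 11.1 and 6.38 CPM with DMSO and 11.7 and 12.4 CPM with 1-NA-PP1. These levels rest on 87 to 205 counts per library, and the DMSO heat shock libraries differed from each other more than the other pairs. FIT2 rose 5.09-fold with DMSO (log2 change 2.35, SE 0.244, edgeR adjusted p = 0.000126) and 5.36-fold under the inhibitor (2.42 on the log2 scale, SE 0.231, adjusted p = 8.93e-05). Its change with DMSO was above that of 99.3% of all genes. FIT3 (YOR383C) had 23.5 and 20.9 CPM with DMSO and 24.9 and 30.0 CPM with 1-NA-PP1 at steady state. Its levels in heat shock were 54.9 and 38.4 CPM with DMSO and 57.9 and 52.8 CPM with 1-NA-PP1. Its log2 change was 1.07 (SE 0.173, edgeR adjusted p = 0.00107) with DMSO and 1.01 (SE 0.171, adjusted p = 0.00159) with 1-NA-PP1.

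**Figure D3:**
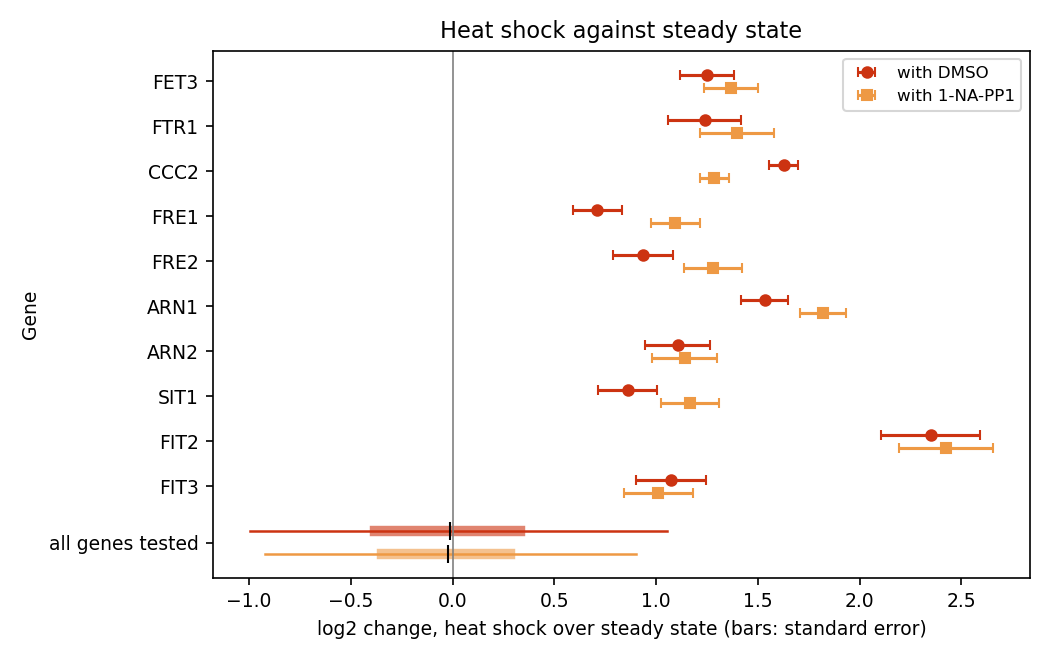
Log2 change of heat shock over steady state (x axis) for each uptake gene, with DMSO (circles) and with 1-NA-PP1 (squares); bars are the standard error of the edgeR fit. The bottom rows give all 4901 genes as median (tick), middle 50% (thick line) and 5th to 95th percentile (thin line). All 10 genes lie above 0 in both comparisons, from 0.71 to 2.42.

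With 1-NA-PP1 the picture under heat shock was of the same kind. All 10 genes rose with 1-NA-PP1, where 25.3% of all genes were called higher and 28.1% lower, and all 10 had groups that did not overlap, against 36.5% of all genes. The median log2 change was 1.28, against -0.02 for all genes, and the sum went from 1063 ± 66.2 to 2604 ± 122 CPM (SD, n = 2). The heat shock comparisons with DMSO and with 1-NA-PP1 share no library. The scaling mattered for these calls. With the authors' deposited factors the median of all genes fell to -0.32 with DMSO and -0.66 with 1-NA-PP1, and relative to it the median of the uptake genes was 1.16 and 1.31. Under these factors edgeR called 9 of 10 higher with DMSO and only FIT2 with 1-NA-PP1. The calls over all genes were then 425 higher and 2053 lower with DMSO, against 1450 and 1416 with TMM, and 23 and 183 with 1-NA-PP1, against 1241 and 1376. In the authors' deposited table all 10 had a positive log2 change in both comparisons. An adjusted p under 0.05 was given there for 9 genes with DMSO, FRE1 being at 0.0531, and for ARN1 and FIT2 with 1-NA-PP1, where 8.88% and 1.14% of all genes were called higher.

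Transcripts near chromosome ends were described with the same fit because 6 of the genes lie there. Of the 257 tested transcripts within 35 kb of an end, those 6 included, 40.5% were called higher under heat shock with DMSO and 38.1% with 1-NA-PP1, with median log2 changes of 0.13 and 0.14. Of the 4644 other transcripts, 29.0% and 24.6% were called higher. The 6 uptake genes near ends had log2 changes of 0.86 to 2.35 with DMSO, and the 4 elsewhere (FET3, FTR1, CCC2 and FRE1) had 0.71 to 1.63.

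Other genes of iron handling were set beside the uptake genes. Of 14 further targets of Aft1 or its paralog Aft2, 9 rose and 0 fell with DMSO, and 10 rose and 0 fell with 1-NA-PP1. Their median log2 changes were 0.65 and 0.63. For the DMSO comparison, edgeR called 29.6% of all genes higher and 28.9% lower. Its shares in the inhibitor comparison were 25.3% higher and 28.1% lower. HMX1, which encodes heme oxygenase, rose by 2.11 (SE 0.168, edgeR adjusted p = 3.14e-05) with DMSO and 1.73 with 1-NA-PP1. TIS11, also known as CTH2, encodes an mRNA-decay factor of iron deficiency and rose by 1.47 and 0.90. SMF3 encodes a vacuolar iron exporter and FET5 an oxidase of vacuolar iron export. They rose by 1.05 and 0.86 with DMSO and by 0.80 and 0.54 with 1-NA-PP1. The Mrs4 mitochondrial iron carrier gene had -0.15 (edgeR adjusted p = 0.0868) and -0.18 (adjusted p = 0.0510), and FIT1, the third mannoprotein gene of the FIT family, had 0.22 (adjusted p = 0.287) and -0.07 (adjusted p = 0.752). Of these 14, the authors' deposited tables called 6 higher and 1 lower (MRS4) with DMSO, and 1 (HMX1) higher with 1-NA-PP1. Those tables called 8.88% of all genes higher and 41.8% lower with DMSO, and 1.14% and 18% with 1-NA-PP1. With 1-NA-PP1, FET5 had -0.06 there (adjusted p = 0.913), and the list's median was -0.04, against -0.66 for all genes.

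Genes of low-affinity and copper-linked uptake moved in part. Of 7 measured, 5 rose and 1 fell with DMSO, and 4 rose and 1 fell with 1-NA-PP1. Over all genes 29.6% were called higher and 28.9% lower with DMSO, and 25.3% and 28.1% with 1-NA-PP1. FRE7, a reductase gene controlled by copper through Mac1, rose by 1.62 (SE 0.126, edgeR adjusted p = 2.70e-05) and 1.87 (SE 0.120, adjusted p = 1.19e-05). The plasma membrane metal transporter gene SMF1 rose by 0.97 and 0.82, the low-affinity iron transporter gene FET4 by 0.58 and 0.74, and the endosomal SMF2 fell by 0.23 and 0.29. The copper transporter gene CTR3 rose by 0.94 with DMSO and had 0.31 (edgeR adjusted p = 0.104) with 1-NA-PP1. The authors' deposited tables called 3 of the 7 higher and 1 lower with DMSO, and FRE7 alone higher with 1-NA-PP1. Over all genes those tables called 8.88% higher and 41.8% lower with DMSO, and 1.14% and 18% with 1-NA-PP1.

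Of 11 genes that regulate iron use, 2 rose and 1 fell with DMSO and 3 rose and 1 fell with 1-NA-PP1, counts near or below the shares over all genes of 29.6% higher and 28.9% lower with DMSO and 25.3% and 28.1% with 1-NA-PP1. AFT1 itself had 373 ± 3.41 CPM at steady state and 421 ± 22.6 CPM under heat shock with DMSO (SD, n = 2), a log2 change of 0.18 that did not pass (SE 0.0679, edgeR adjusted p = 0.0538). With 1-NA-PP1 it rose by 0.30 (SE 0.0678, edgeR adjusted p = 0.00648). The sign of these changes depends on the scaling. The authors' deposited tables give AFT1 changes of -0.13 with DMSO (adjusted p = 0.583) and -0.33 with 1-NA-PP1 (adjusted p = 0.536). The medians over all genes in those tables were -0.32 and -0.66, so AFT1 lay above the median gene with either scaling. AFT2 had 0.09 and 0.18, with edgeR adjusted p-values of 0.633 and 0.333. FRA1, a part of the complex that signals iron-sulphur cluster status to Aft1, rose by 0.45 and 0.31, and TYW1, an iron-sulphur enzyme of wybutosine synthesis, by 0.39 and 0.74. CYC8, a subunit of the Cyc8-Tup1 corepressor, fell by 0.58 in each comparison. Of 11 iron-sulphur cluster assembly genes, 2 rose and 2 fell with DMSO and 2 rose and 3 fell with 1-NA-PP1, with medians of -0.02 and -0.10, and these counts too were near or below the shares over all genes. The cysteine desulphurase gene NFS1 rose by 0.62 and 0.73 and the scaffold gene ISU1 by 0.52 and 0.45, while the paralogous scaffold ISU2 fell by 0.44 and 0.31. The late assembly factor gene ISA2 fell by 0.26 and 0.31. With the authors' scaling, the deposited DMSO table called 0 regulators higher and 2 lower, and 0 assembly genes higher and 4 lower. Over all genes that table called 8.88% higher and 41.8% lower. With 1-NA-PP1 the authors' deposited table gave negative log2 changes to FRA1 (-0.32) and ISU1 (-0.20) and called CYC8 alone, lower, over both lists. The median of all genes in it was -0.66, and 1.14% of all genes were called higher and 18% lower.

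**Figure D4:**
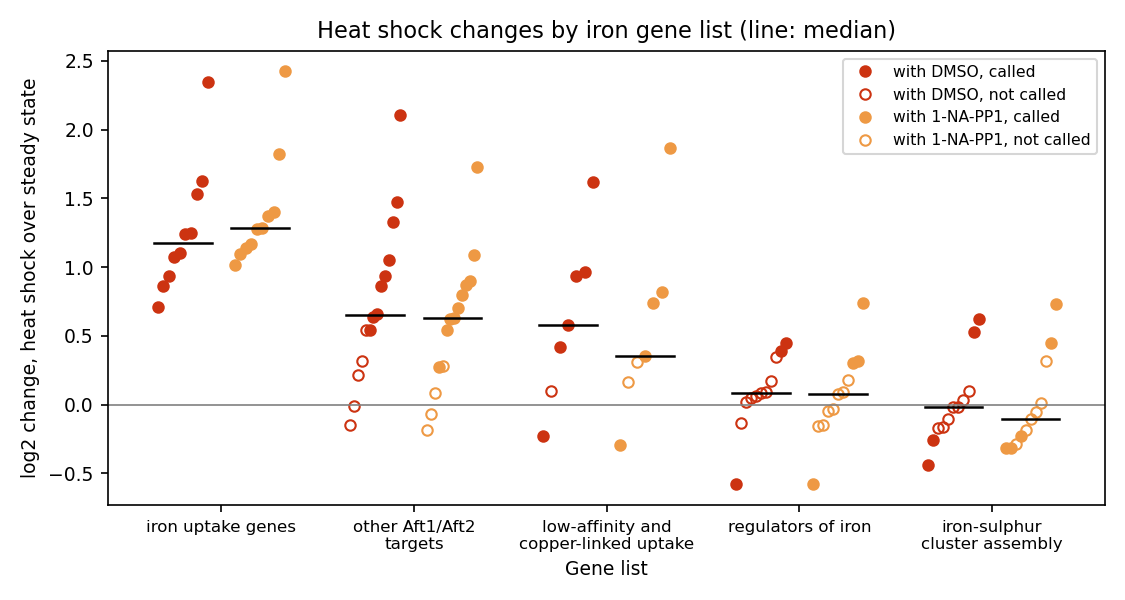
Log2 change of heat shock over steady state (y axis) for each gene of 5 lists, with DMSO (red) and with 1-NA-PP1 (orange); filled points passed edgeR's adjusted p of 0.05, open points did not, and lines are list medians. The uptake genes have medians of 1.17 and 1.28, the other Aft targets 0.65 and 0.63, and the iron-sulphur assembly genes -0.02 and -0.10.

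At steady state 1-NA-PP1 changed none of the 10 genes in edgeR's test. The count was 0 of 10, and 0% of all 4901 genes passed in either direction. At an unadjusted p under 0.05, CCC2 was higher and FTR1 lower, where 32.8% of all genes passed. CCC2 had a log2 difference of 0.38 (SE 0.0707, edgeR adjusted p = 0.0679), which equals the smallest adjusted p over all genes. That adjusted value is shared and gives no rank: SSN3 had it too, at an unadjusted edgeR p of 0.0025 against 0.000661 for CCC2. FTR1 had -0.44 (SE 0.176, edgeR adjusted p = 0.126). Libraries did not overlap and were higher with 1-NA-PP1 for CCC2, ARN2, FRE2, FIT2 and FIT3, as for 44.7% of all genes, and lower for FTR1, as for 28% of all genes. The median log2 difference of the 10 was 0.15, against 0.05 for all genes, and FET3, SIT1 and FRE1 had -0.09, -0.00 and -0.16. With the authors' deposited factors that median was -0.11, against -0.21 for all genes. DESeq2 called CCC2 (adjusted p = 0.000697) and 426 genes higher and 560 lower in all, and limma's voom with sample weights called CCC2 (adjusted p = 0.0232) and 281 higher and 468 lower in all. The second 1-NA-PP1 library at steady state stood apart from its group in the principal component analysis. Without the first library of that group, so that this second library stood alone, the log2 difference was 0.43 for CCC2 and -0.77 for FTR1. A group of 1 library has no spread of its own, so no calls are given for this fit.

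Under heat shock the inhibitor again changed none of the 10 genes in edgeR's test, where 0.326% of all genes were called. FRE2 and ARN1 were higher at an unadjusted p under 0.05, as 7.79% of all genes were. FRE2 had a log2 difference of 0.61 (SE 0.149, edgeR adjusted p = 0.118) and ARN1 of 0.36 (SE 0.113, edgeR adjusted p = 0.201). DESeq2 called FRE2 (adjusted p = 0.0177), with 127 genes higher and 100 lower in all, and voom called none of the 10, with 33 and 32 in all. The difference was positive in 9 of the 10, as in 50.1% of all genes, and FTR1 had -0.28. That direction depends on the scaling: with the factors behind the authors' normalised counts, an alternative added after the data were seen, 8 of these 9 turned negative and the median was -0.32, against -0.62 for all genes, a relative median of 0.30. The libraries did not overlap and were higher with 1-NA-PP1 for ARN1, SIT1, FRE1, FRE2 and FIT2, as for 23.2% of all genes, and lower for FTR1, as for 22.8%. The median log2 difference was 0.25, against 0.00 for all genes. One library moved with it. DMSO replicate 1 under heat shock exceeded replicate 2 in 10 of the 10 genes, against 51.1% of all genes. The median excess was 0.37 on the log2 scale, a size that 5.98% of all genes reached. The median log2 difference of 1-NA-PP1 over DMSO was 0.49 without DMSO replicate 1 and 0.08 without DMSO replicate 2. The part of that library difference in the result was not tested further.

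**Figure D5:**
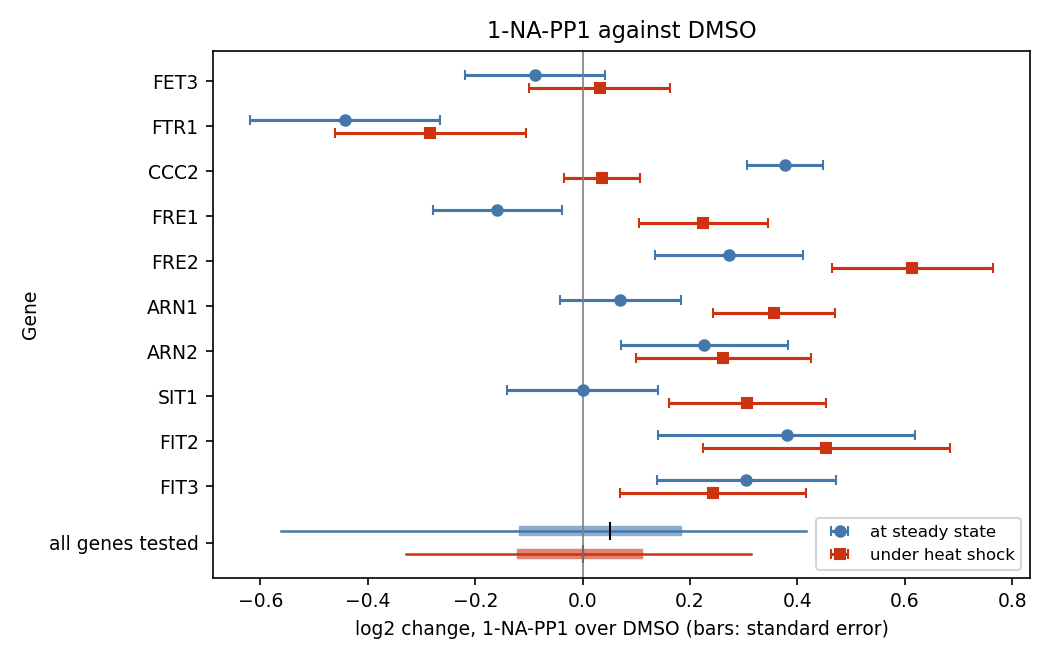
Log2 difference of 1-NA-PP1 over DMSO (x axis) for each uptake gene at steady state (circles) and under heat shock (squares); bars are the standard error of the edgeR fit, and the bottom rows give all genes as in the plot of heat shock changes. FTR1 lies below 0 at both temperatures, at -0.44 and -0.28, and CCC2 moves from 0.38 at steady state to 0.04 under heat shock; none of the 20 values passed the adjusted test.

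Whether the heat shock change differed with and without the inhibitor was tested as the difference of both changes. None of the 10 genes passed in edgeR, where 0.0204% of all genes did, and none was called by DESeq2 or voom. At an unadjusted p under 0.05 only CCC2 passed, with a smaller change under 1-NA-PP1 by -0.34 on the log2 scale (SE 0.100, edgeR adjusted p = 0.357), where 7.81% of all genes passed in that direction. Without 1-NA-PP1 replicate 1 at steady state the value for CCC2 was -0.39, from a fit with 1 library in that group. FRE1 had 0.38 (SE 0.170, edgeR adjusted p = 0.372), FRE2 0.34, SIT1 0.31 and ARN1 0.29, and the median over the 10 was 0.14 against -0.04 for all genes. Of the other lists, none of the genes was called for the inhibitor at either temperature or for this difference.

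The uptake genes were described by their likeness to each other and to other transcripts over the 8 libraries, which share the large step between steady state and heat shock. Among them, ARN2 and FIT2 were most alike (Pearson r = 0.996 on log2 CPM), ARN2 and FIT3 followed at 0.993, and FTR1 and FRE2 were least alike at 0.782. The 5 transcripts outside the iron lists that were most like the mean profile of the 10, among 4563 whose mean log2 CPM reached 3, were YHR022C (r = 0.996), TRE2 (0.995), TOM71 (0.994), ERG24 (0.994) and QNS1 (0.993). For single genes the most alike were HSP30 for FET3, RNR2 for FTR1, AVT6 for CCC2, SUV3 for FRE1, PEP3 for FRE2, ERG24 for ARN1, TOG1 for ARN2, BNA3 for SIT1, YCL049C for FIT2 and YDR541C for FIT3.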

How the data were processed

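Newly made RNA of yeast was measured by 4tU-seq in 8 libraries. The authors deposited raw counts, whole reads per transcript of an open reading frame, on the build sacCer3. Per the submitters' processing notes, the tools were DESeq2, HTSeq, SAMtools, STAR 2.5.2b and cutadapt 1.9.1, in no stated order and without settings. The deposited normalised tables hold a signal, each count divided by a factor for its library, and deposited files list factors scaled as a ratio with the first library at 1. These equal the factors behind the normalised values in each comparison except 1-NA-PP1 against DMSO under heat shock, where the listed factors repeat those of the DMSO heat shock comparison. Per the file headers, the authors' comparison tables give a log2 fold change, its error and p-values per gene. Other deposited files hold coordinates and transcript lengths, which were used, and the authors' lists of heat shock genes, which were not.

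Counts were scaled by TMM and fitted in R 4.3.3 with edgeR 4.0.16 (quasi-likelihood, filterByExpr, 1 model of 4 groups), with p-values adjusted by Benjamini-Hochberg over 4901 genes. Tests were two-sided. The script was tested on simulated data. The smallest two-sided p that exact permutation of 2 against 2 libraries allows is 0.333. CPM are depth-normalised counts, and levels per kilobase use the deposited length. The reference matched the files, since 4840 transcripts carried the name of a RefSeq gene and all 4840 overlapped it. DESeq2 1.42.0, limma 3.58.1, other scalings, no filter, left-out libraries, the replicate block and coding lengths were alternatives.

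The members and lists were chosen with earlier results of these data known. Named were all 10 genes, up to 4 genes of each further list per comparison by smallest p, and the most alike transcripts. No label ties libraries of the same replicate number to each other, so the model holds no replicate block. Promoters were read from the genome.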

Additional observations from a re-analysis of the deposited data

How the results depend on the processing

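In the heat shock comparisons the uptake genes were positive in every alternative, and 10 of 10 passed in each setting except the authors' deposited factors, which left 9 with DMSO and 1 with 1-NA-PP1. For the inhibitor at steady state 1 gene was called by DESeq2 and 1 by voom, and 0 to 2 when a library was left out. The deposited factors gave a median of -0.11 there, with ARN1 at -0.17 and ARN2 at -0.049, and voom gave SIT1 0.0054; the median of all genes moved to -0.21, so that the relative median stayed at 0.10. Leaving out a library gave FET3 -0.21 to 0.025 and SIT1 -0.10 to 0.11. For the inhibitor under heat shock DESeq2 called 1 gene, FRE2, with its counts over all genes given above. The deposited factor file moved the median of all genes to 1.98 and FTR1 to 1.68. Its numbers repeat those of the DMSO heat shock file, so calls under it are not given. Factors recovered from the normalised counts, an alternative added after the data were seen, gave a median of -0.32 (all genes -0.62), with FET3 at -0.55, CCC2 at -0.58, ARN1 at -0.23, ARN2 at -0.31, SIT1 at -0.27, FRE1 at -0.37, FIT2 at -0.11 and FIT3 at -0.33. Leaving out a library gave FET3 -0.14 to 0.25. For the difference of the heat shock changes, leaving out a library gave -0.10 to 0.48 for FTR1 and -0.13 to 0.38 for ARN2. The ranges were -0.19 to 0.59 for FIT2 and -0.23 to 0.28 for FIT3. The cause of these reversals was not tested; in a group with a library left out, the lone library is assumed to vary like the others.

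With replicate number as a block, 0, 0, 10, 10 and 0 of the uptake genes were called for the inhibitor at steady state, the inhibitor under heat shock, heat shock with DMSO, heat shock with 1-NA-PP1 and the difference, as without it, while the inhibitor under heat shock called 4 genes in all against 16. Deviations of libraries with the same number correlated at -0.31 between the steady state groups, 0.00 between the heat shock groups, 0.03 between the DMSO groups and 0.26 between the 1-NA-PP1 groups, so they gave no uniform sign of pairing. A block with crossed numbers at steady state, added after the data were seen, called 0 of the uptake genes and 0 genes in all. Without SIT1 and FRE1, which overlap genes on the other strand, 8 of 8 rose in each heat shock comparison, also an alternative added later. Coding lengths in place of transcript lengths kept the order of levels. Heat shock libraries held at most 17743527 counts, so FIT2 rested on as few as 87.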
